A study of Mus musculus with 9 samples.

Results

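S100 proteins and annexins are 2 families of calcium-binding proteins, and the transcripts of 10 of them were followed across the 3 groups of a mouse liver RNA-seq experiment. The members were taken by symbol and are S100a4, S100a6, S100a8, S100a9, S100a10, S100a11, Anxa1, Anxa2, Anxa3 and Anxa5. All 10 had a row among the 16755 genes of the table. S100 proteins are short EF-hand proteins that form dimers and, once loaded with calcium, bind partner proteins. Annexins are larger proteins whose core repeats bind acidic phospholipids of membranes when calcium is present. The families meet in pairs, as S100A10 binds annexin A2 and S100A11 binds annexin A1. S100A8 and S100A9 together form calprotectin, an abundant protein of the neutrophil cytosol that is released at sites of inflammation.

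The experiment asked how liver tissue near tumors differed when stearoyl-CoA desaturase 2 was deleted in collagen-producing cells. Scd2f/f mice carry loxP sites around an exon of Scd2, and Scd2f/f;CC mice carry in addition Col1a1-Cre, a Cre whose promoter is active in activated hepatic stellate cells (aHSC) and portal fibroblasts. The Scd2f/f TAL group (n = 3) and the Scd2f/f;CC TAL group (n = 3) received diethyl nitrosamine (DEN), a liver carcinogen, at 10 mg/kg when 2 weeks old. From 6 weeks of age these mice were given a Western alcohol diet (WAD), a diet rich in fat and cholesterol together with ethanol, for 4 months by the labels, while the study's methods give a longer time. TAL is the study's name for tumor-adjacent liver, tissue without visible tumors that by the study held microscopic ones, and the sample labels say liver tissue. The control liver group (n = 3) came from untreated Scd2f/f mice, so all 9 animals, males of the C57BL/6 strain, carried the floxed Scd2 allele. Every value is a group mean of upper-quartile normalized read counts, given to 3 significant digits. The analysis had group means alone, so the means carry no error, no test was run, and no difference is set against the spread between mice. The depth of the libraries is unknown.

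The targeted gene was read first. Scd2, which makes monounsaturated fatty acids, had a mean of 2.46 in control liver, 6.47 in Scd2f/f TAL and 1.87 for the Scd2f/f;CC TAL group. The mean is over whole tissue and over the whole gene, and liver holds many cells in which the Cre is not active. Hepatocyte markers were present in all groups, with Alb at 21300, 20900 and 22700 in the same order.

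S100a10 alone of the members had its highest mean in control liver, and the other members had it in Scd2f/f TAL. In Scd2f/f TAL, 9 of 10 members were higher than in control liver, and 7 were higher by at least 2-fold. Of all genes, 9.37% were at least 2-fold higher in this comparison. With genes under a mean of 1 over the 3 groups left out, 5 of 7 members and 6.40% of the genes passed the same limit. The median log2 quotient was 1.46 over the members and 0.04 over all genes. In Scd2f/f;CC TAL, all 10 members were lower than in Scd2f/f TAL, where 49.6% of all genes were lower by any amount. The members lower by at least 2-fold were S100a11, Anxa1 and Anxa5, which is 3 of 10 beside 4.07% of all genes, or 3 of 7 beside 1.54% of genes once the low ones are left out. The median log2 quotient here was -0.74 over the members and 0.00 over all genes. Each pair of comparisons shares a group mean. These 2 share Scd2f/f TAL, so a high value there raises the first quotient and lowers the second.

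**Figure D1:**
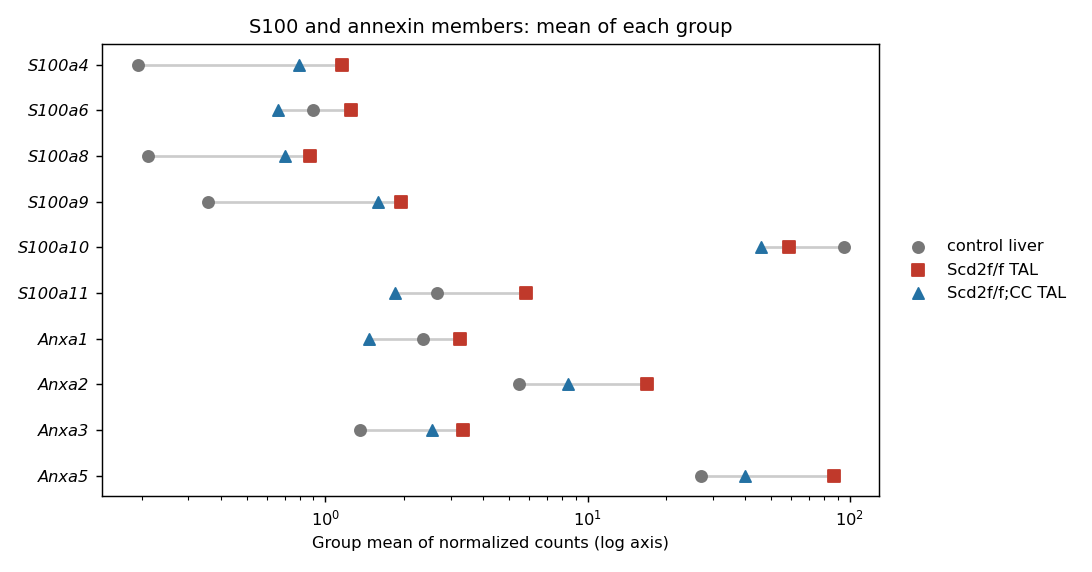
Mean of normalized counts of the 10 members in control liver (gray circles), Scd2f/f TAL (red squares) and Scd2f/f;CC TAL (blue triangles), on a log axis, with a gray line spanning the 3 means of a gene. The red square lies to the right of the blue triangle in every row, and only for S100a10 is control liver the highest group, at 95.3.

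The comparison of Scd2f/f;CC TAL with control liver separated the members. At least 2-fold higher were S100a4, S100a8 and S100a9, which is 3 of 10 members beside 6.41% of all genes. Of these only S100a9 had a mean over the 3 groups of at least 1, which leaves 1 of 7 members beside 4.51% of such genes. S100a9 reached that mean through the treated groups in which it was high, as its control mean was 0.355, so the filtered counts that include it are no support for a difference. Of the remaining members, Anxa2, Anxa3 and Anxa5 were between 1.48-fold and 1.89-fold higher than control liver. The means of S100a6, S100a11 and Anxa1 were between 1.37-fold and 1.61-fold below control liver. S100a10 was 2.08-fold below it, the only 1 of 10 members at least 2-fold lower, beside 777 of 16755 genes. Only 2.32% of the genes of like level had a lower quotient than S100a10 in this comparison. The fold changes of S100a4, S100a8 and S100a9 rest on control means under 0.4, and with 1 added to each mean none of the members was 2-fold higher in Scd2f/f;CC TAL than in control liver.

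To judge a quotient at a given level, each member was set beside the genes whose mean over the 3 groups lay within a factor of 2 of its own. The share of these genes with a lower quotient describes the place of the member among them and is not a test.

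**Figure D2:**
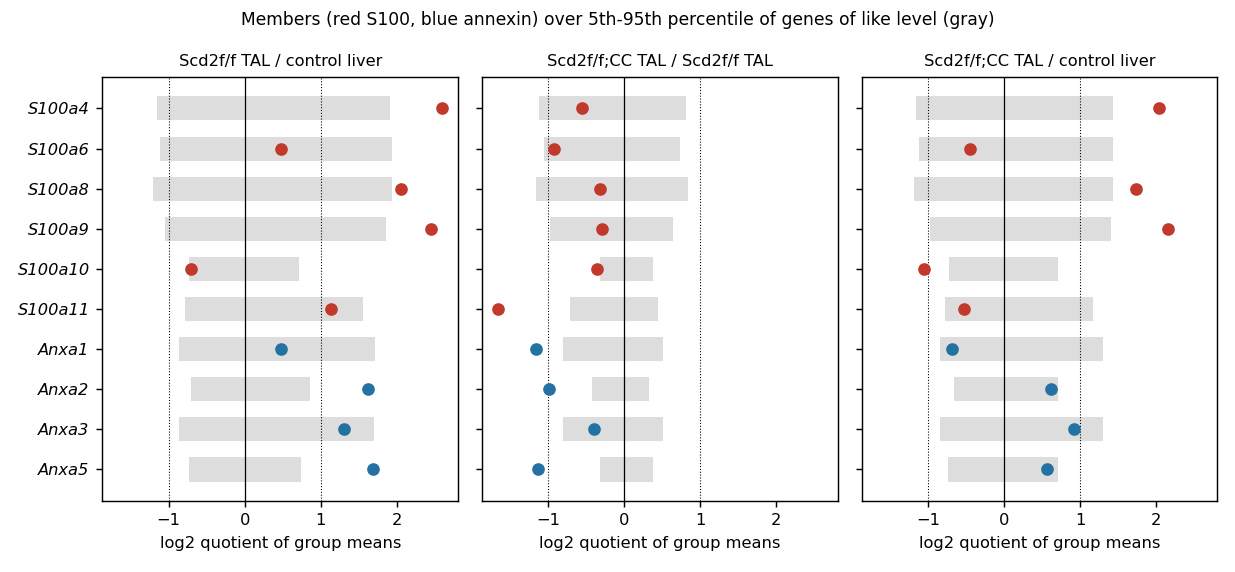
Log2 quotients of the group means for S100 (red) and annexin (blue) members in 3 comparisons, with gray bars from the 5th to the 95th percentile of genes of like level and dotted lines at 2-fold. In the middle panel S100a11 (-1.66), Anxa1 (-1.16), Anxa5 (-1.13), Anxa2 (-0.99) and S100a10 (-0.36) lie below their gray bars. In the right panel S100a4, S100a8 and S100a9 lie above theirs, and S100a10 (-1.06) lies below its bar.

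Calprotectin was followed through both of its subunits. S100a9 had a mean of 0.355 in control liver, 1.94 in Scd2f/f TAL and 1.59 for the Scd2f/f;CC TAL group. It was 5.46-fold higher in Scd2f/f TAL than in control liver, above 98.3% of the genes of like level. S100a8 had means of 0.21, 0.871 and 0.698, a 4.15-fold difference in the same comparison. Both subunits were therefore low in untreated liver and higher in each treated group. Between the treated groups S100a9 was 1.22-fold lower and S100a8 1.25-fold lower in Scd2f/f;CC TAL, which placed them above 29.9% and 30.2% of the genes of like level. These were the 2 smallest differences of the members in that comparison.

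S100a4, known as fibroblast-specific protein and also made by macrophages and lymphocytes, had a mean of 0.192 in control liver, 1.16 in Scd2f/f TAL and 0.792 for the Scd2f/f;CC TAL group. Its log2 quotient of 2.59 between Scd2f/f TAL and control liver was the highest of the members. The Scd2f/f;CC TAL mean was 1.46-fold below Scd2f/f TAL and 4.12-fold above control liver. S100a6, also called calcyclin, lies next to it on the chromosome and had another pattern, with means of 0.899, 1.25 and 0.657. It was 1.39-fold higher in Scd2f/f TAL than in control liver and 1.90-fold lower in Scd2f/f;CC TAL than in Scd2f/f TAL, inside the middle 90% of genes of like level in both.

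S100a11, the partner of annexin A1, showed the largest difference of the members between the treated groups. Its means were 2.66 in control liver, 5.84 in Scd2f/f TAL and 1.85 for the Scd2f/f;CC TAL group. It was 2.20-fold higher in Scd2f/f TAL than in control liver and 3.16-fold lower in Scd2f/f;CC TAL than in Scd2f/f TAL, a quotient below all but 0.474% of the genes of like level. Anxa1, which codes for the glucocorticoid-induced protein that acts on formyl peptide receptors to limit leukocyte entry, had means of 2.35, 3.26 and 1.46. It was 1.39-fold higher and then 2.23-fold lower in the same comparisons. Both partners thus had their lowest mean in Scd2f/f;CC TAL, at 1.44-fold and 1.61-fold below control liver.

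The other pair went in opposite directions from control liver to Scd2f/f TAL, and both were lower in Scd2f/f;CC TAL than in Scd2f/f TAL. S100a10, the light chain of the annexin A2 heterotetramer that binds plasminogen at the cell surface, had means of 95.3 in control liver, 58.7 in Scd2f/f TAL and 45.8 for the Scd2f/f;CC TAL group. It was 1.62-fold lower in Scd2f/f TAL than in control liver, and only 5.76% of the genes of like level had a lower quotient. It was a further 1.28-fold lower in Scd2f/f;CC TAL. Anxa2, the membrane-binding subunit, had means of 5.48, 16.8 and 8.45. It was 3.07-fold higher in Scd2f/f TAL than in control liver and 1.99-fold lower in Scd2f/f;CC TAL than in Scd2f/f TAL, just outside the 2-fold limit. The nearest member inside the limit was Anxa5, at 2.19-fold lower.

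Anxa5, whose protein binds phosphatidylserine and is used as a probe for dying cells, had the highest level per kb of the annexin members in every group. Its means were 27.0 in control liver, 87.3 in Scd2f/f TAL and 39.9 for the Scd2f/f;CC TAL group. Its log2 quotient of 1.69 against control liver lay above 99.3% of 2130 genes of like level, of which the middle 90% ran from -0.72 to 0.74. Its quotient of -1.13 between the treated groups lay above only 0.376% of them. Anxa3 had means of 1.35, 3.35 and 2.55. It was 2.48-fold higher in Scd2f/f TAL than in control liver and 1.31-fold lower in Scd2f/f;CC TAL than in Scd2f/f TAL, so it stayed 1.89-fold above control liver, the highest such value among the annexin members.

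The members were ranked against each other by level only as the mean divided by the length of the merged exons in kb. On that scale S100a10 came first in control liver at 78.6 per kb, followed by Anxa5 at 15.2 and S100a11 at 5.21. In Scd2f/f TAL Anxa5 was first at 49.1 per kb, before S100a10 at 48.4 per kb. With the length of the longest transcript in place of the merged exons this order turned, to 50.4 per kb for Anxa5 and 85.7 per kb for S100a10. In Scd2f/f;CC TAL S100a10 was again first, at 37.8 per kb, and Anxa5 was at 22.5 per kb. S100a9 moved from 0.680 per kb in control liver to 3.72 in Scd2f/f TAL and 3.05 for the Scd2f/f;CC TAL group. The 4 members below it in control liver, S100a8, S100a4, Anxa3 and S100a6, lay between 0.303 and 0.658 per kb. Without errors on the means, neighbors in this order cannot be separated.

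The table held 9 further genes of both families. None of them was 2-fold lower in Scd2f/f;CC TAL than in Scd2f/f TAL, beside 4.07% of all genes. In Scd2f/f TAL 1 of 9, S100g, was 2-fold higher than in control liver, beside 9.37% of all genes, on means of 0.0775 and 0.178. Their median log2 quotients were 0.28 for Scd2f/f TAL against control liver and -0.14 between the treated groups. S100a1, an S100 protein best known from muscle, had means of 54.5, 36.8 and 33.5 in control liver, Scd2f/f TAL and Scd2f/f;CC TAL, and so had its highest mean in control liver as did S100a10. S100a13 (6.94, 5.41 and 5.39) and S100a16 (6.72, 5.35 and 5.21) had the same order of groups. Among annexins, Anxa6 (31, 51.6 and 48.9) and Anxa4 (16.4, 22.5 and 19.8) were higher in both treated groups than in control liver. Anxa7 (56.4, 69 and 56.2) was higher in Scd2f/f TAL alone, and Anxa11 (11.9, 13.3 and 13.9) differed little between the groups. Anxa9 was under a mean of 1 in every group, between 0.418 and 0.722.

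All 6 S100 members lie on chromosome 3 (GRCm38), where S100 genes form a cluster interrupted by genes of the skin barrier. S100a4 (90603771 to 90606045, plus strand), S100a6 (90612882 to 90624181, plus), S100a8 (90668978 to 90670035, plus) and S100a9 (90692632 to 90695721, minus) stand within the first 88.9 kb of the span, counted between their lower coordinates. S100a11 (93520488 to 93526287, plus) and S100a10 (93555080 to 93564643, plus) stand at its far end, and the whole span is 2.96 Mb long. Of the 11 genes of the table in this span, 5 were not members, namely Lor, Gm9774, Sprr1a, Gm4202 and Tchh. Some neighbors had similar quotients and others did not. S100a8 and S100a9 had log2 quotients of 2.05 and 2.45 for Scd2f/f TAL against control liver. S100a11 and S100a10 are also next to each other in the table, with quotients of 1.13 and -0.70 in the same comparison. Tchh, a hair follicle protein gene just before them, was lower in Scd2f/f TAL than in control liver, with means of 0.678 and 3.24. The annexin members are spread over 4 chromosomes, with Anxa1 on chromosome 19 (20373428 to 20390944, minus), Anxa2 on chromosome 9 (69453620 to 69491795, plus), Anxa3 on chromosome 5 (96793339 to 96845966, plus) and Anxa5 on chromosome 3 (36448923 to 36475894, minus).

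**Figure D3:**
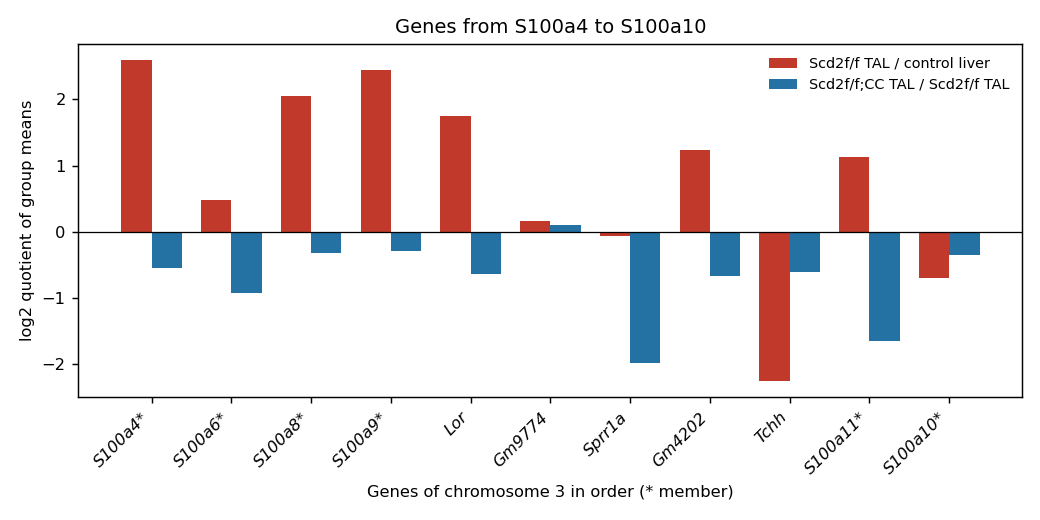
Log2 quotients of the 11 genes from S100a4 to S100a10 in their order on chromosome 3, for Scd2f/f TAL over control liver (red bars) and Scd2f/f;CC TAL over Scd2f/f TAL (blue bars), members marked by an asterisk. The 4 clustered members at the left have red bars from 0.48 to 2.59, and S100a10 at the right end has a red bar of -0.70.

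Counts of several members could include reads of other transcripts. By annotation S100a4 overlaps Gm42674 and Anxa3 overlaps Gm42603 on the same strand, and Anxa2 and Anxa5 hold microRNA genes. Anxa1 overlaps 1500015L24Rik and Anxa2 overlaps Gm16144, each on the opposite strand, and a strand setting of the counting is not given in the sources used here. S100a11 has a processed pseudogene, S100a11-ps, with which it could share reads. The values of these 5 overlapped genes and of S100a11 are uncertain to that extent.

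The bases around the start sites of the members were searched for 4 motifs. RefSeq promoters (GRCm38.p6), from 250 bases before to 50 after each start, were at hand for 8 of 10 members, and S100a10 and Anxa3 were not among them. The 4 stretches shown end at the base before the first annotated base of a GENCODE transcript, which lies 8 bases upstream of the RefSeq start for S100a11, 63 for Anxa2, 7 for Anxa5 and 0 for S100a9. They belong to S100a11, Anxa2 and Anxa5, the 3 members placed lowest among genes of like level between the treated groups, and to S100a9, which was high in both. Bases are in lower case, 5′ to 3′ along the gene, and capitals mark motif matches. The stretches are chr3:93520246-93520487 (plus strand) for S100a11, chr9:69453433-69453619 (plus) for Anxa2, chr3:36475895-36476137 (minus) for Anxa5 and chr3:90695722-90695971 (minus) for S100a9.
S100a11: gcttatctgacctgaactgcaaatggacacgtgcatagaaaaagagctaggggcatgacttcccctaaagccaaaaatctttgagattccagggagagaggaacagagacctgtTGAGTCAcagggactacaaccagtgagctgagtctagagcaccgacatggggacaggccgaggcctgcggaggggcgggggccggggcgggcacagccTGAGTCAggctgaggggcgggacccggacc
Anxa2: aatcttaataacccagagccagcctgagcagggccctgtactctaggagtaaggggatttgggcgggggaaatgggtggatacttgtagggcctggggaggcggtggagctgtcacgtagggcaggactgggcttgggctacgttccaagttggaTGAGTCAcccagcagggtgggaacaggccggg
Anxa5: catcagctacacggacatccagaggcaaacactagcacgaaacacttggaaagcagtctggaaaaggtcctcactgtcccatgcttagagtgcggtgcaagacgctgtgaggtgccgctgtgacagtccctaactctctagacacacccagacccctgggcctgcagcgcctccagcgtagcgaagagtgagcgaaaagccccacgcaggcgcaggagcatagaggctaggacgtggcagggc
S100a9: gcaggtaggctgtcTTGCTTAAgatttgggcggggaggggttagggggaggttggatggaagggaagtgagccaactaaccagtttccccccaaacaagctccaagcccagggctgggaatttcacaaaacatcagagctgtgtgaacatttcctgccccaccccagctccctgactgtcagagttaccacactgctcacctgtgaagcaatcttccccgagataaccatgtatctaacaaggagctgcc

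The AP-1 motif TGANTCA, searched on both strands and identical to its own reverse complement in form, was present in S100a11 and Anxa2. Positions are counted back from the RefSeq start, whose last upstream base is -1, so they include the bases between the end of the stretch and that start. S100a11 held the motif from -136 to -130 and again from -38 to -32, and Anxa2 held it from -95 to -89. This motif occurred in 7.81% of 32851 promoters of the same length. The C/EBP motif TTGCNNAA was found in S100a9, from -236 to -229, and in Anxa1, from -143 to -136, and in 10.8% of all promoters. The TEAD motif GGAATG, found in 14.7% of promoters, was matched by Anxa1 alone of the 8 members. The TCF/LEF motif CTTTGAT was matched by none of the 8 and by 3.73% of promoters. No 2 motifs overlapped in the members. A match describes the letters in this window and is not a measured binding site.

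Receptors of the secreted members were read from a list of 9 genes, of which 7 had a row. In Scd2f/f TAL 4 of 7 were at least 2-fold higher than in control liver, beside 9.37% of all genes, with a median log2 quotient of 1.92. Bsg, the immunoglobulin-family protein also called CD147 or basigin, had means of 109, 144 and 127 in control liver, Scd2f/f TAL and Scd2f/f;CC TAL. Cd36, a scavenger receptor and fatty acid transporter, had means of 23.7, 138 and 88.5. The formyl peptide receptors that annexin A1 engages were low in control liver and higher in both treated groups, with Fpr1 at 0.602, 2.61 and 2.44 and Fpr2 at 0.245, 1.2 and 0.894. Tlr4, a receptor of calprotectin, was 1.94-fold higher in Scd2f/f TAL than in control liver. Between the treated groups the median was -0.24. Cd14 alone of the 7 was 2-fold lower in Scd2f/f;CC TAL, beside 4.07% of all genes, with means of 3.26 and 1.41.

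The annexin A2 and S100A10 complex assembles the plasmin system at the cell surface. A list of this system and of partners of the complex held 7 genes, all with a row. In Scd2f/f TAL 2 of them were at least 2-fold higher than in control liver, beside 9.37% of all genes. Among these 2 was Plau, the urokinase activator (0.626 and 2.05). Between the treated groups 2 of the 7 were at least 2-fold lower in Scd2f/f;CC TAL, beside 4.07% of all genes. They were Plat, the tissue activator (1.2 and 0.277), and Plaur, the urokinase receptor (0.938 and 0.332). Plg, plasminogen itself and a product of hepatocytes, had means of 962, 1120 and 1270 in control liver, Scd2f/f TAL and Scd2f/f;CC TAL. Ctsb, a lysosomal protease, had means of 167, 331 and 278. Ahnak, the large scaffold that the complex binds, followed the order of S100a10 with 71.5, 58.8 and 43.2.

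Membrane repair, in which annexins gather at torn plasma membrane with dysferlin-type proteins, was read from a list of 10 genes, of which 8 had a row. The median log2 quotient was 0.42 for Scd2f/f TAL against control liver and -0.16 between the treated groups. Myof, a ferlin, was the only 1 of the 8 at least 2-fold higher in Scd2f/f TAL than in control liver, beside 9.37% of all genes. Its means were 3.08 and 9.69. Trim72, a protein that seals membrane tears in muscle, went the other way at low level, with 0.339 in control liver, 0.0832 in Scd2f/f TAL and 0.172 for the Scd2f/f;CC TAL group. Ehd2, a protein of caveolar necks, was the only 1 of the 8 at least 2-fold lower in Scd2f/f;CC TAL than in Scd2f/f TAL, with 2.73 and 1.31. The share of all genes was 4.07%. The calpain genes with the highest means, Capns1 (24.9, 40.7 and 34.8) and Capn2 (25.5, 27.7 and 27), stayed within 1.63-fold of control liver.

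Markers of several cell types moved with the members, and in whole tissue fewer cells of a type and less RNA per cell cannot be told apart. Neutrophil markers other than the calprotectin genes were at low level, and 5 of 12 had a row. Their summed mean was 0.854 in control liver, 2.84 in Scd2f/f TAL and 2.29 for the Scd2f/f;CC TAL group, an order of groups also seen for S100a8 and S100a9. Csf3r, the receptor of the neutrophil growth factor, had means of 0.477, 1.46 and 1.17, and Mmp9 had means of 0.157, 0.726 and 0.756. Between the treated groups Mmp9 was higher in Scd2f/f;CC TAL and the other 4 were lower. Cxcr2, with means of 0.14, 0.471 and 0.218, was the only 1 of the 5 lower there by at least 2-fold, beside 4.07% of all genes. All 5 were at least 2-fold higher in Scd2f/f TAL than in control liver, beside 9.37% of all genes. Ltf and Ngp were listed at 0.04 in control liver, the lowest mean of any gene in that group. None of the 5 was listed at 0.

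Markers of monocytes and recruited macrophages, 10 of 10 with a row, summed to 35.6, 148 and 81.7. All 10 were at least 2-fold higher in Scd2f/f TAL than in control liver, beside 9.37% of all genes. Lyz2, a lysozyme, had means of 24.9, 107 and 63.7, and Cd9, a tetraspanin, 6.83, 17 and 8.54. Gpnmb, Cx3cr1 and Trem2 were at least 2-fold lower in Scd2f/f;CC TAL than in Scd2f/f TAL, which is 3 of 10 beside 4.07% of all genes. Resident Kupffer cell markers summed to 79.7, 312 and 269, and none of the 8 was 2-fold lower in Scd2f/f;CC TAL than in Scd2f/f TAL. Cd5l (22.9, 114 and 99) and Clec4f (27.3, 71.2 and 71.7) were higher in both treated groups than in control liver. Markers of T, B and NK cells summed to 1.98, 5.45 and 3.71, with Cd4 at 0.442, 0.817 and 0.883 and Cd3e at 0.226, 1.25 and 0.545.

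Markers of stellate cells and portal fibroblasts summed to 216 in control liver, 356 in Scd2f/f TAL and 202 for the Scd2f/f;CC TAL group. The Cre is active in the activated stellate cells, and the list does not separate these from quiescent ones. Of the 13 genes of this list, 10 were higher in Scd2f/f TAL than in control liver, 4 of them by at least 2-fold, beside 9.37% of all genes. The other 3 were lower, namely Tagln (7.85 and 3.79), Des (4.25 and 3.29) and Acta2 (1.27 and 1.2), genes of the contractile and filament apparatus, and Tagln alone of them by at least 2-fold. All 13 were lower in Scd2f/f;CC TAL than in Scd2f/f TAL, 8 of them by at least 2-fold, beside 4.07% of all genes. Dcn, a matrix proteoglycan, had means of 70.3, 118 and 67.2, and Reln, a secreted protein of stellate cells, 73, 89.2 and 71.6. Cholangiocyte markers, 7 of 8 with a row, summed to 59.3, 55.0 and 19.6. Of the 7, 6 were at least 2-fold lower in Scd2f/f;CC TAL than in Scd2f/f TAL, beside 4.07% of all genes. Among these 6, Krt19, Muc1, Cftr and Krt7 were at low level, with Scd2f/f;CC TAL means between 0.0892 and 0.347. Spp1, which made up most of each sum, had means of 52.3, 45.1 and 14.8, and Sox9 had means of 3, 5.03 and 3.52. Against control liver, 4 of the 7 were higher in Scd2f/f TAL, Muc1 and Cftr by at least 2-fold, and 3 were lower. Endothelial markers summed to 110, 147 and 147, with Stab2 at 36.9, 42.8 and 45.9 and Kdr at 29.8, 34.9 and 40.2, and hepatocyte markers summed to 37749, 34961 and 39405, with Cyp2e1 at 3460, 3990 and 4570. The part of each cell type in the values of the members was not tested.

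**Figure D4:**
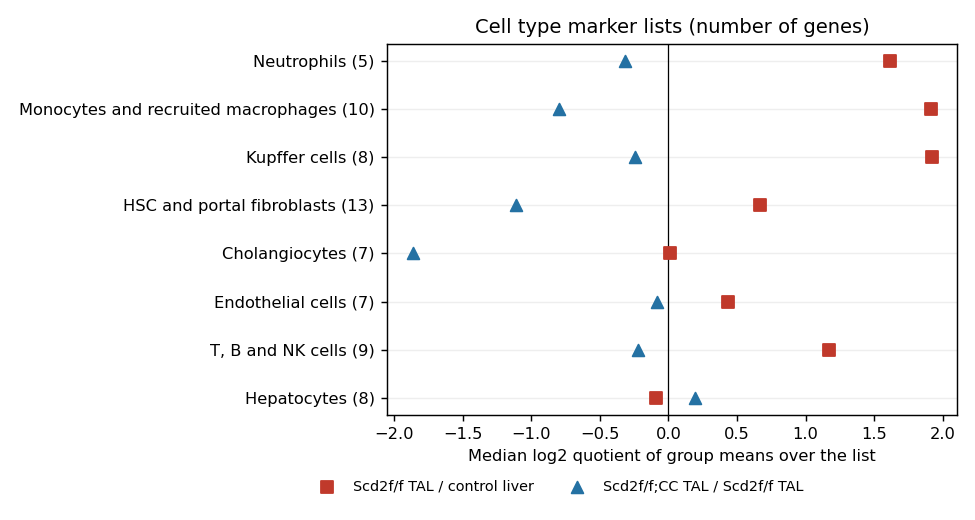
Median log2 quotient of each cell type marker list, with the number of its genes that had a row, for Scd2f/f TAL over control liver (red squares) and Scd2f/f;CC TAL over Scd2f/f TAL (blue triangles). The blue triangles of cholangiocytes (-1.86) and of HSC and portal fibroblasts (-1.11) lie farthest to the left, while that of neutrophils is at -0.32.

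Genes outside both families with a like pattern were sought among the 5583 genes whose mean reached 10. Nearness was the Euclidean distance of the log2 quotients of the first 2 comparisons from the median pair of the members, over the 3 group means. The 4 nearest were Ucp2, Icam1, Tubb2a and Marcks, at distances from 0.02 to 0.28. Ucp2, a mitochondrial carrier, had means of 7.66, 20.8 and 12.4, and Icam1, an adhesion molecule for leukocytes, 5.96, 17.7 and 11.3. Tubb2a, a beta-tubulin, had means of 13.6, 40.3 and 22.2. Marcks, a substrate of protein kinase C at the membrane, had 13, 35.2 and 25.5.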

How the data were processed

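RNA from liver tissue of 9 mice in 3 groups of 3 was sequenced after polyA selection. The submitters' processing notes name STAR 2.6.1, Partek 6 and mm10. The authors quantified genes against a GENCODE annotation, scaled counts by the upper quartile and deposited, as a signal, the least-squares mean of the normalized counts of each group. The deposited table also holds the authors' p-values, FDR, ratios and fold changes of 2 comparisons, which were not used. All samples carry 1 treatment protocol text, and controls were taken from the label of no treatment. Only group means were at hand, so groups were compared by the log2 quotient of their means, with no pseudocount, and no test, SD or interval was computed. A gene was counted as higher or lower at 2-fold or more. Background shares were taken over all genes and over genes with a mean over the 3 groups of at least 1. Every member was named. From each of 11 lists, the 2 genes with the highest mean were named. Other list genes were named after their values were seen, and some results are not reported here. Exon lengths and coordinates came from a GENCODE annotation of GRCm38, whose gene coordinates matched those of the members in the table apart from an end coordinate larger by 1 there, and promoters from RefSeq. Alternatives were other fold limits, pseudocounts, filters and centring. The calculations, in Python 3.11.15 with pandas 2.3.3, were tested on simulated data. The members and lists were chosen with earlier results of these data known.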

Additional observations from a re-analysis of the deposited data

How the results depend on the processing

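The counts of members past 2-fold were recomputed under 24 alternatives, of which 15 stayed within 1.5 times the reported count. In parentheses stands the share of genes past the same limit, over genes with a mean of at least 1, or of at least 10 where the members were so filtered. Where the members were not filtered, all 10 were counted, 3 of them with a mean under 1. The share is then over genes unlike the members counted. The count of 7 members higher in Scd2f/f TAL than in control liver became 3 with 1 added to each mean (3.83% of genes) and 2 among the 3 members with a mean of at least 10 (2.6%). Of these 2, Anxa2 reached that mean only through Scd2f/f TAL, at 16.8 beside 5.48 in control liver and 8.45 in Scd2f/f;CC TAL. The filtered count that includes it is therefore no support for a difference. The count of 3 members lower in Scd2f/f;CC TAL than in Scd2f/f TAL became 5 at 1.5-fold (4.87%), 1 at 3-fold (0.382%) and 1 among the members with a mean of at least 10 (0.609%). The count of 3 members higher in Scd2f/f;CC TAL than in control liver became 5 at 1.5-fold (10.9%), 0 with 1 added to each mean (2.21%), 0 among members with a mean of at least 10 (2.29%), and 1 among the 7 members with a mean of at least 1 (4.51%), an alternative chosen after seeing the data. Fewer members enter under each filter. The order by level per kb with the longest transcript kept the place of 5, 6 and 4 of 10 members in control liver, Scd2f/f TAL and Scd2f/f;CC TAL.

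The analysis had group means alone, so leaving out a mouse, the planned bounds from the highest single sample, and the spread between samples were not run. No paired analysis was run, because only group means were at hand. Without counts or library totals, the depth behind the low means, such as those of S100a4 and S100a8, is unknown. Means carry 3 significant digits.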
